A study of Mus musculus with 6 samples.

Results

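The genes described here are the 7 immunoglobulin heavy chain constant genes Ighm, Ighd, Ighg3, Ighg1, Ighg2b, Ighg2c and Igha, and Jchain, which encodes the joining chain of secreted antibodies. They were taken by gene symbol, 8 of the 31053 genes in the files and 8 of 395 with an immunoglobulin symbol or Jchain, and all 8 were found. The data are 6 droplet single-cell RNA libraries of mouse pancreatic cells, counted as UMIs (molecules tagged before amplification). All groups came from R26[CA]30EYFP mice on a C57Bl/6J background, a reporter in which EYFP, a yellow fluorescent protein, becomes active in single cells of any type and is then inherited by their progeny. In pancreatitis there was 1 EYFP positive and 1 EYFP negative library, both of run 3, taken 9 days after cerulein, a secretagogue that inflames the pancreas (7 daily injections of 50 ug/kg, on 2 days). In homeostasis there were 2 EYFP positive and 2 EYFP negative libraries, of runs 1 and 2, from mice with no treatment listed. Run 3 and pancreatitis cannot be told apart. Whether each library came from its own animal is not labelled, and p-values reflect only how far these 6 libraries differ, which may be technical. The sources used here give no age or sex for any group, and the files hold no EYFP transgene row against which the sort could be checked.

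An antibody is built of paired heavy and light chains, and the constant gene joined to the heavy chain sets its class. B cells that have not met antigen splice one long transcript to either Ighm or Ighd and carry IgM and IgD on the surface. Class switching deletes the DNA in between and brings a downstream gene into use, Ighg3, Ighg1, Ighg2b or Ighg2c for the IgG subclasses and Igha for IgA. Plasma cells, the end stage of the lineage, transcribe 1 such gene at a very high level in a secreted form. IgM and IgA are secreted as polymers closed by the J chain, and such polymers are what the epithelial receptor carries into the secretions of gut, bile and pancreas.

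The heavy chain genes stand on the minus strand of chromosome 12 in the order in which switching can reach them. In the mouse annotation used for reference (GRCm38, GENCODE vM21), whose identifiers match those in the files for all 8 genes, Ighm spans chr12:113418558-113422730, Ighd chr12:113406604-113416324 and Ighg3 chr12:113356224-113361232. Further downstream lie Ighg1 at chr12:113325240-113330523, Ighg2b at chr12:113302965-113307933, Ighg2c at chr12:113285325-113288932 and Igha at chr12:113254830-113260236. Jchain stands apart, at chr5:88519809-88527891 on the minus strand. The coding end of the secreted forms is shown because it holds the tailpiece by which IgM and IgA bind the J chain. Each stretch reads 5′ to 3′ on the coding (minus) strand, and the capitals mark the coding bases found only in the secreted form with the stop codon.
Ighm (chr12:113420867-113420958): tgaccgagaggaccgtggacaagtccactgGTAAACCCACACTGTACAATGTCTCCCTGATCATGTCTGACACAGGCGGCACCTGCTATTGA
Igha (chr12:113258768-113258859): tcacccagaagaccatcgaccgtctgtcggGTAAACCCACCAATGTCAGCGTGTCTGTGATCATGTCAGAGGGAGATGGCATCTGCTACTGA
Ighg3 (chr12:113359665-113359702): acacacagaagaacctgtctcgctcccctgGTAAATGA
Ighg1 (chr12:113328976-113329013): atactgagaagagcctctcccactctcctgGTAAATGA
Ighg2b (chr12:113306389-113306426): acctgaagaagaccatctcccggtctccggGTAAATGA
Ighg2c (chr12:113287389-113287426): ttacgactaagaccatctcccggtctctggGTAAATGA
The secreted-only coding stretch is 59 bases long in Ighm and in Igha and 5 bases in each of the 4 IgG genes. UMIs per gene do not separate secreted from membrane forms. The secreted transcripts of Ighg2b and Ighg2c are 87.8% identical with a shared run of 78 bases, so a split of reads between these 2 genes is uncertain. The other IgG genes are 77.0% to 80.7% identical to one another, with shared runs of 28 to 41 bases.

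The libraries held 8582 barcodes and 44833541 UMIs, of which 4879 barcodes were kept as cells, with library medians of 2568 to 7386 UMIs per kept cell. Cells were clustered without immunoglobulin genes and named by markers, so each class below is a marker-based likeness. The B-like class (959 cells) and the plasma-like class (54 barcodes) both had UMIs of 16 of 16 plasma cell markers. Of the 15 B cell markers they had 15 and 13. The classes differed in level, given as CPM (UMIs of a gene per 1000000 UMIs of a class sum). Plasma cell markers summed to 7751 CPM in plasma-like and 1152 CPM in B-like cells, and B cell markers to 1598 and 15066 CPM. In the pancreatitis libraries the plasma cell markers of plasma-like barcodes summed to 480 and 1294 CPM only. The same lists named the clusters, so these values are no separate check. The 3 plasma-like barcodes of EYFP positive run 3 included an endocrine one, since endocrine markers summed to 692260 CPM there. Haemoglobin and other erythroid markers summed to 84.7 to 564 CPM in B-like cells of EYFP positive libraries and to 1431 to 26299 CPM in those of EYFP negative libraries. The part of such foreign RNA in the comparisons was not tested.

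Libraries of 1 run shared cell barcodes, and this bears on every count of plasma-like cells. Of all barcodes, 146 occurred in more than 1 library, 141 of them in both EYFP libraries of the same run (23 in run 1, 71 in run 2 and 47 in run 3). A shared barcode was carried by 32 of the 54 plasma-like barcodes, against 11 of the 959 B-like cells. Ductal-like cells had 67 among 345, T or NK-like cells 35 and endothelial-like cells 10. In 12 shared barcodes both entries held at least 10 heavy chain UMIs, and both entries had the same dominant heavy chain gene in 12 of 12 and the same light chain class in 12 of 12. A heavy chain V gene was detected in both entries of 3, and it was the same gene in 3 of 3.

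The entries of a shared barcode differed in depth. In 11 of the 12 the EYFP negative library held 25.1 to 61.4 times the UMIs of the EYFP positive one, and in 1 the EYFP positive library held 41.1 times as many. In run 1, an Ighg1 barcode had 311 heavy chain UMIs in the EYFP positive library and 12352 in the EYFP negative one, and an Ighg2b barcode with Ighv1-26 in both had 256 against 9479. An Ighg3 barcode with Ighv1-11 in both entries had 273 UMIs in the EYFP positive and 10574 in the EYFP negative library of run 1, and an Ighm barcode with Ighv2-6 in both had 179 against 6700. The entry with fewer UMIs is called the shallower copy here, and the counts, shares and Jchain ratios of plasma-like cells below are also given without such copies. How a barcode came to be in both libraries was not tested.

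**Figure D1:**
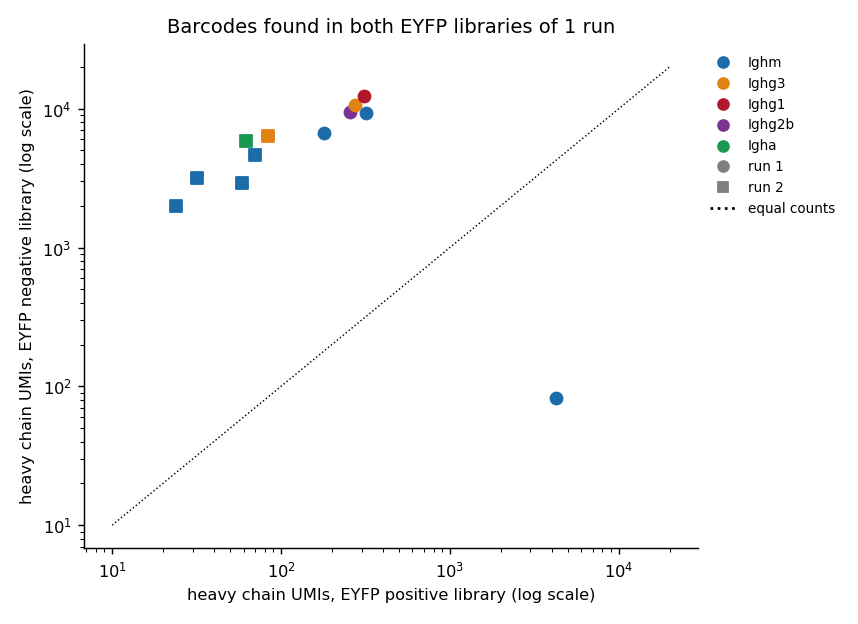
Heavy chain UMIs of the 12 barcodes with at least 10 such UMIs in both EYFP libraries of 1 run, EYFP positive on the x axis and EYFP negative on the y axis (both log scales), coloured by the dominant heavy chain gene, which was the same in both entries (circles, run 1; squares, run 2). Of the 12, 11 lie far above the dotted line of equal counts, and 1 (4265 UMIs in the EYFP positive against 82 in the EYFP negative library) lies below it.

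Most plasma-like cells of the pancreas used Ighm. A cell was given a dominant isotype where it had at least 10 heavy chain UMIs and at least 50% of them came from 1 gene. Of the 54 plasma-like barcodes 37 met this rule, and Ighm was dominant in 25 of the 37 (67.6%, exact 95% binomial interval 50.2% to 82.0%). The other 12 had switched: 4 used Ighg3, 4 Ighg1, 3 Ighg2b and 1 Igha. None used Ighd or Ighg2c, and 0 of 37 allows a share of up to 8.11%. Without shallower copies it was 0 of 26, which allows a higher share. The 17 barcodes with no isotype all had under 10 heavy chain UMIs. The highest of them had 9 UMIs and the lowest with an isotype had 24. At least 4 plasma cell markers had a UMI in 33 of the 37 cells with an isotype and in 1 of the 17 without; without shallower copies this was 26 of 26 and 1 of 8. Intervals here cover counting error only.

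Each cell was close to pure. At least 99% of heavy chain UMIs came from 1 gene in 34 of the 37 cells, and 100% in 21; without shallower copies it was 24 and 12 of 26. The cell with the most heavy chain UMIs, in EYFP negative run 1, had 12346 UMIs of Ighg1 and 3 of its next gene, Ighg3. The Igha cell, in EYFP negative run 2, had 5797 Igha UMIs and 27 of Ighg2b. An Ighg2b cell of EYFP negative run 1 had 9432 Ighg2b UMIs and 45 of Ighg2c, which falls under the uncertain split of these similar genes. Heavy chain genes made up a median of 11.5% of a cell's UMIs (range 0.443% to 53.9%), and the cell at 53.9% was an Ighg2b cell of EYFP negative run 1 with 5578 UMIs. Of the 37, 34 were kappa and 3 lambda by their light chain UMIs, and the 3 lambda cells all used Ighm. Both entries of 1 shared barcode are among these 3, and without shallower copies 24 were kappa and 2 lambda.

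Split by EYFP, Ighm was dominant in 9 of 13 plasma-like cells of the EYFP positive libraries (69.2%, interval 38.6% to 90.9%) and in 16 of 24 of the EYFP negative libraries (66.7%, 44.7% to 84.4%). The switched EYFP positive cells were 2 Ighg3, 1 Ighg1 and 1 Ighg2b, and the switched EYFP negative cells 2 Ighg3, 3 Ighg1, 2 Ighg2b and the Igha cell. All 4 switched EYFP positive cells were shallower copies. Without shallower copies 26 cells remained, 18 of them Ighm (69.2%, 48.2% to 85.7%), 3 Ighg1, 2 Ighg3, 2 Ighg2b and 1 Igha. Of these, 3 lay in EYFP positive libraries, all Ighm, and 23 in EYFP negative ones, 15 of them Ighm. The libraries held 2, 0 and 1 such cells (EYFP positive runs 1 to 3) and 8, 15 and 0 (EYFP negative runs 1 to 3), and isotype shares were not tested between groups.

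By condition, the pancreatitis libraries held 1 plasma-like cell with an isotype, an Ighm cell of EYFP positive run 3, and homeostasis held 36, 24 of them Ighm (25 and 17 without shallower copies). That count depends on the doublet filter. EYFP negative run 3 had 2 further barcodes with plasma cell levels, 1 with 5253 Igha UMIs and 1 with 5613 Ighm UMIs, both removed as called doublets. Over all deposited barcodes, at least 50 heavy chain UMIs were found in 80: 34 plasma-like, 36 B-like, 5 in an unnamed cluster, 3 called doublets and 2 under the minimum of 200 genes. The unnamed cluster held an Ighm barcode of EYFP negative run 2 with 3154 Ighm UMIs.

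**Figure D2:**
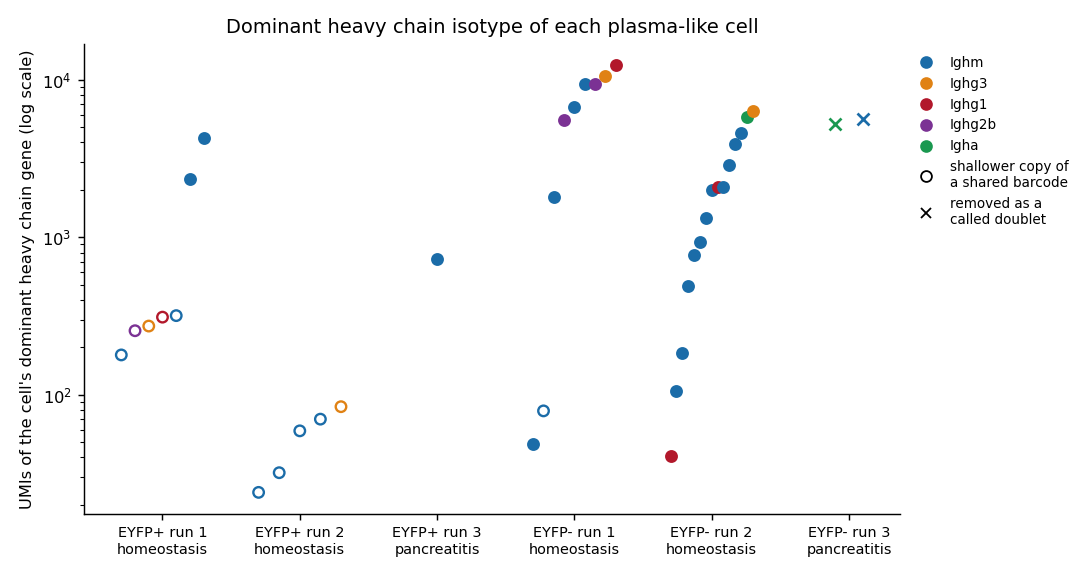
UMIs of the dominant heavy chain gene (log scale) in each of the 37 plasma-like cells with an isotype, by library, coloured by gene; open circles are shallower copies of a shared barcode and crosses the 2 barcodes of EYFP negative run 3 removed as called doublets. All 5 cells of EYFP positive run 2 are shallower copies with 24 to 84 UMIs, and the 4 cells with the most, 9372 to 12346 UMIs, all lie in EYFP negative run 1.

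Jchain, whose protein closes IgM and IgA polymers, was seen across isotypes. Per 100 heavy chain UMIs, Ighm cells had a median of 26.5 Jchain UMIs (range 0 to 214.5, 25 cells) and IgG cells of 15.2 (1.88 to 23.2, 11 cells). Within IgG, the 4 Ighg1 cells had 15.2 to 23.2, the 3 Ighg2b cells 1.88 to 18.5 and the 4 Ighg3 cells 6.28 to 10.6. The ranges of Ighg1 and Ighg3 did not overlap, but each gene includes both entries of shared barcodes. The Igha cell had 51.3, from 2988 Jchain and 5824 heavy chain UMIs. The ratio spanned a wide range within Ighm: 3 Ighm cells had under 1 Jchain UMI per 100, 2 of them none, while the Ighm cell of EYFP positive run 3 had 1568 Jchain and 731 heavy chain UMIs. Of the 2 with none, 1 was a shallower copy with 32 heavy chain UMIs, whose deeper entry had 51 Jchain UMIs. The other had 53 heavy chain UMIs among 11975, 4 of them Ighd, and UMIs of 12 B cell markers. The Ighg2b cell with 53.9% of its UMIs from the heavy chain had 105 Jchain UMIs, or 1.88 per 100. Without shallower copies the medians were 25.2 in 18 Ighm cells and 15.2 in 7 IgG cells, the 3 Ighg1 cells had 15.2 to 18.2, the 2 Ighg2b cells 1.88 and 18.5 and the 2 Ighg3 cells 6.28 and 7.79, and 2 Ighm cells had under 1. These are values of single cells, and no test was made between isotypes.

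**Figure D3:**
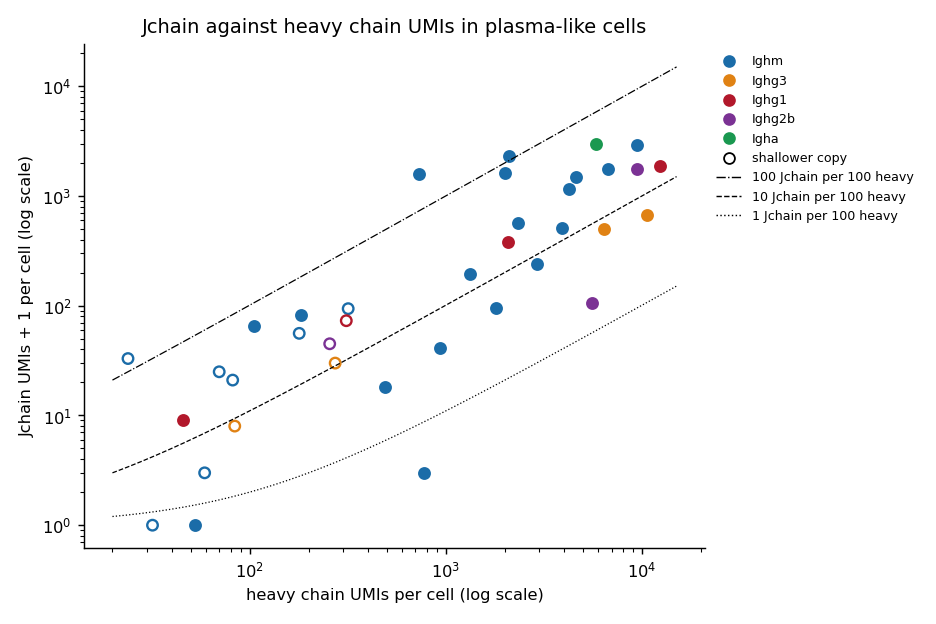
Jchain UMIs plus 1 against heavy chain UMIs per plasma-like cell (log scales), coloured by dominant isotype, with lines at 1, 10 and 100 Jchain UMIs per 100 heavy chain UMIs and shallower copies as open circles. Ighg3 cells lie near the line of 10, the Igha cell (51.3) above it, and Ighm cells from below the line of 1 to above that of 100.

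The number of plasma-like cells was compared as their share of B-lineage cells (plasma-like plus B-like) per library. It was 25%, 15.9% and 7.69% in EYFP positive runs 1 to 3 and 8.33%, 6.78% and 0.463% in EYFP negative runs 1 to 3, and the EYFP positive library was higher in 3 of 3 runs. In run 3 these few barcodes include the endocrine one of the EYFP positive library and 2 of the EYFP negative library with 0 heavy chain and 0 Jchain UMIs among 2084. The means were 16.2% ± 8.66 and 5.19% ± 4.17 (SD, n = 3 each), a difference of 11.01 points with p = 0.2 (exact permutation, two-sided; no smaller p than 0.1 can be reached with 3 against 3). Without shallower copies the shares were 10.3%, 0% (0 of 37) and 7.69% in EYFP positive runs 1 to 3 and 7.48%, 5.46% and 0.232% in EYFP negative runs 1 to 3, and the difference was 1.62 points (p = 0.7, same exact test). The 2 pancreatitis libraries had 4.08% ± 5.11 (SD, n = 2) and the 4 homeostasis libraries 14.0% ± 8.34 (SD, n = 4), a difference of -9.93 points (p = 0.2, smallest possible 0.0667, exact permutation test). Without shallower copies it was -1.86 points (p = 0.867, exact). Counting only plasma-like cells with an isotype, the shares were 20.6%, 11.9% and 2.70% in EYFP positive and 8.33%, 4.35% and 0% (0 of 430) in EYFP negative runs 1 to 3, with differences of 7.505 points for EYFP (p = 0.3, exact permutation) and -9.94 points for pancreatitis (p = 0.133, exact permutation). For the 2 main comparisons, of all plasma-like barcodes with shallower copies kept, both p-values are 0.2 after adjustment (Benjamini-Hochberg, exact permutation tests).

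The 54 plasma-like barcodes held 69.8% of all Ighm UMIs of kept cells, while the 959 B-like cells held 22.1%. Plasma-like cells also held 99.1% of Ighg2b, 98.96% of Ighg3, 98.2% of Ighg1, 97.0% of Jchain and 95.4% of Igha UMIs. Ighd was the reverse, with 0.136% in plasma-like and 98.2% in B-like cells. Ighg2c was the rarest heavy chain gene, with 111 UMIs in all kept cells, 49.6% of them in plasma-like and 9.01% in B-like cells. The plasma-like shares of the switched genes rest on few cells. In EYFP negative run 2, 1 cell held 5797 of 5799 plasma-like Igha UMIs. In EYFP negative run 1, 1 cell held 12346 of 12347 plasma-like Ighg1 UMIs. Of 11475 Igha UMIs over all deposited barcodes, 5253 lay in 1 barcode that was not kept.

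B-like cells carried Ighm with Ighd. Ighm stood at 3543, 2944 and 3423 CPM in EYFP positive runs 1 to 3 and at 3596, 2774 and 2884 CPM in EYFP negative runs 1 to 3, and the 2 sets overlapped. Ighd stood at 917, 883 and 941 CPM in EYFP positive runs 1 to 3 and at 833, 838 and 962 CPM in EYFP negative runs 1 to 3, which overlapped too. Behind the Ighm values lie 400 to 953 UMIs in 27 to 37 EYFP positive cells a library and 2373 to 6922 UMIs in 99 to 430 EYFP negative cells. Ighd had 27.6 UMIs per 100 Ighm UMIs in EYFP positive and 30.6 in EYFP negative B-like cells, and 32.7 in pancreatitis and 27.3 in homeostasis (a ratio of UMIs, not adjusted for transcript length). UMIs of both genes were found in 826 of 959 B-like cells (86.1%), and the pair made up 97.6% of all their heavy chain UMIs. After thinning to 1000 UMIs per cell, 85.7% to 95.2% of B-like cells had an Ighm UMI in each library, against 0% to 11.8% of endothelial-like cells, which should lack the gene (library medians 3301 to 7173 and 3167 to 6842 UMIs per cell before thinning). Unthinned, these shares were 89.2% to 100% and 0% to 27.3%. Thinning left out 6, 9 and 1 B-like cells of EYFP positive and 3, 77 and 5 of EYFP negative runs 1 to 3.

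Switched B-like cells were rare. Of 908 B-like cells with at least 3 heavy chain UMIs, 8 (0.881%, interval 0.381% to 1.73%) had most of them from an IgG or IgA gene, 1 of 93 in EYFP positive and 7 of 815 in EYFP negative libraries, and 3 of 463 in pancreatitis and 5 of 445 in homeostasis. EYFP positive run 2 held a cell with 43 Ighg1 UMIs and no other heavy chain gene. EYFP negative run 1 held a cell with 130 Igha of 133 heavy chain UMIs and 176 Jchain UMIs, another with 18 Igha of 20, and 1 with 14 Ighg1 of 24. In EYFP negative run 2 the cell had 3 Ighg2b of 5 UMIs. EYFP negative run 3 held cells with 8 Ighg1 UMIs of 8, 12 Ighg3 of 12 and 10 Ighg3 of 12.

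**Figure D4:**
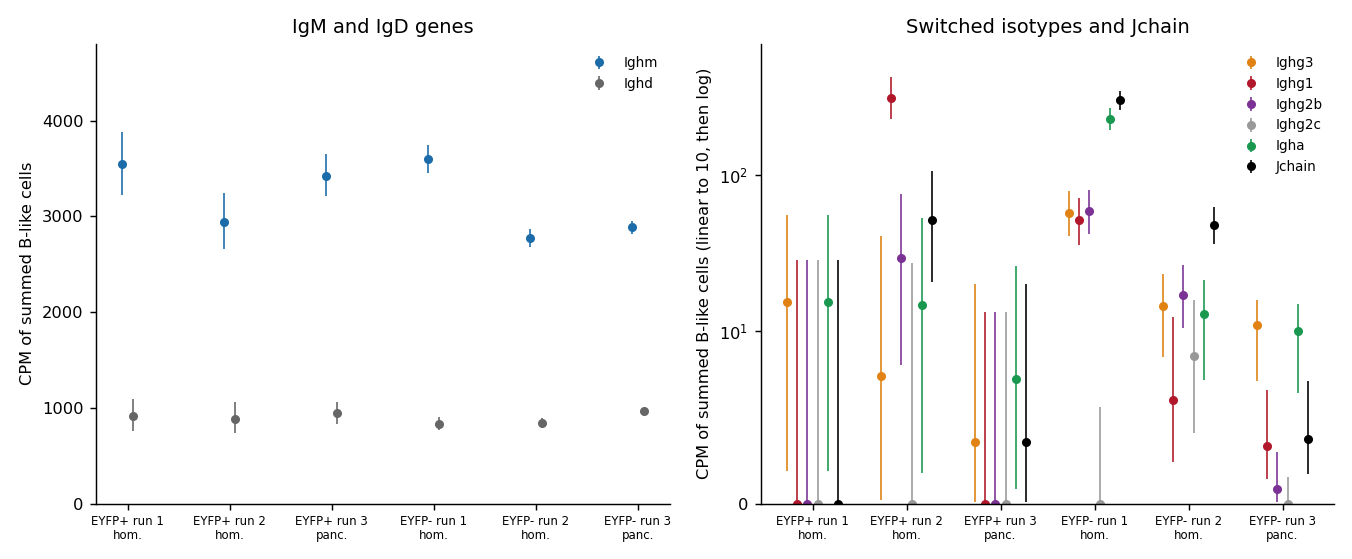
CPM of the 8 genes in summed B-like cells of each library, Ighm and Ighd on a linear axis (left) and the switched isotypes and Jchain on an axis that is linear to 10 and then logarithmic (right); bars are exact 95% Poisson intervals that cover counting error. Ighm (2774 to 3596 CPM) and Ighd (833 to 962 CPM) overlap between EYFP positive and EYFP negative libraries, while Jchain ranges from 0 to 305 CPM.

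Between EYFP positive and EYFP negative B-like cells, none of the 5 genes that passed the low-count filter changed (edgeR quasi-likelihood test on class sums with condition in the model, Benjamini-Hochberg adjustment over all genes). Ighg2c, Ighg3 and Igha did not pass it. Of all 5928 genes 5 were called, a share of 0.0843% (26 genes with run number as a block). Among the 5 members, 2 had an unadjusted p under 0.05, as did 267 of all 5928 genes, and DESeq2 called 0. Ighm differed by 0.02 ± 0.18 and Ighd by -0.03 ± 0.20 in log2 (± gives the fitted standard error; edgeR adjusted p = 0.9998 for both). Jchain had 0, 7 and 1 UMIs in EYFP positive runs 1 to 3 and 201, 56 and 9 in EYFP negative runs 1 to 3, with a log2 difference of -2.54 ± 0.96 (edgeR adjusted p = 0.989). With run number as a block the Jchain value was -2.43 ± 0.58 and passed (edgeR adjusted p = 0.0455), as it did without EYFP negative run 2 (-3.32, edgeR adjusted p = 0.00157). Without EYFP negative run 1 it was -0.86 and without EYFP positive run 1 it was -1.60 (edgeR adjusted p = 0.988 and 0.967), and without EYFP positive run 2 it was -4.46 (edgeR adjusted p = 0.0633). Of the 201 UMIs in EYFP negative run 1, 176 lay in the 1 Igha cell described above. Ighg1 had 0, 43 and 0 UMIs in EYFP positive runs 1 to 3, all 43 in 1 cell, and 34, 7 and 8 in EYFP negative runs 1 to 3 (2.29 ± 0.88, edgeR adjusted p = 0.989).

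Between pancreatitis and homeostasis, the low Jchain and Ighg2b counts of B-like cells passed the test as lower, and Ighm and Ighd did not pass. In EYFP negative homeostasis libraries, part of these counts stood near the levels of classes that should lack these genes, as set out below. The 2 calls, both lower, were among 5 members tested, against 29 of 5928 genes (0.489%) called in either direction and 16 (0.27%) called lower. Jchain, Ighg2b and Ighg1 passed the low-count filter through homeostasis libraries alone, since in pancreatitis they stood at 0 to 3.75 CPM. How many of the 5 were lower was thus partly set by the filter and gives no separate support. Both pancreatitis libraries are of run 3, so by run this sets 1 against 2, no block of run number could be fitted, and any tie between libraries of 1 run is not in the error. Jchain had 1 and 9 UMIs in the EYFP positive and negative pancreatitis libraries, against 0 and 7 in EYFP positive and 201 and 56 in EYFP negative homeostasis libraries (-5.24 ± 0.90, edgeR adjusted p = 0.00914). EYFP positive run 1, at 0 UMIs among 129837, overlapped the pancreatitis libraries. Ighg2b had 0 and 2 UMIs in the EYFP positive and negative pancreatitis libraries, against 0 and 4 in EYFP positive and 39 and 20 in EYFP negative homeostasis libraries (-5.22 ± 0.94, edgeR adjusted p = 0.0131). With 2 UMIs in pancreatitis, the ratio of summed CPM is better read than the fitted value: 0.0248, with a counting interval of 0.00294 to 0.0935. Ighg1 had a value of -3.69 ± 1.05 (edgeR adjusted p = 0.206), Ighm of -0.03 ± 0.19 (0.999) and Ighd of 0.14 ± 0.21 (0.987). The median of the 5 members was -3.69, against -0.01 over all genes tested, and the filter bears on this median in the same way.

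The mice of the conditions also differed in Xist, the transcript of the inactive X chromosome, with 7 and 55 UMIs in B-like cells of the EYFP positive and negative pancreatitis libraries and 212, 69, 952 and 1563 in those of the homeostasis libraries, and its part in these values was not tested. Neither call outlasts the loss of a pancreatitis library. Without EYFP positive run 3 Jchain was at -5.41 (edgeR adjusted p = 0.52) and Ighg2b at -5.18 (0.475), so the size was kept and the call was not. Without EYFP negative run 3 Jchain was at -2.75, and Ighg2b had 0 UMIs left in pancreatitis (edgeR adjusted p = 0.95 for both). Each leaves 1 pancreatitis library that is assumed to vary like the others. Without the 8 switched B-like cells, an alternative chosen after seeing the data, Jchain was at -3.29 ± 0.58 (edgeR adjusted p = 0.0122) and Ighg2b had 0 UMIs in pancreatitis (edgeR adjusted p = 0.016).

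The homeostasis counts behind these calls come mostly from the EYFP negative libraries, where other classes held the same genes. Without the switched cells, Jchain stood at 39.2 and 47.9 CPM in B-like cells of EYFP negative runs 1 and 2. In the same libraries it stood at 37.2 and 28.1 CPM in endothelial-like, 13.8 and 36.7 CPM in T or NK-like and 76.7 and 20.6 CPM in macrophage or monocyte-like cells. Thinned to 1000 UMIs, 3.13% and 5.14% of all B-like cells of these libraries and 6.30% and 3.72% of endothelial-like cells had a Jchain UMI (21.2% and 10% against 11.4% and 8.38% unthinned, at median depths of 5832 and 3301 against 3504 and 3167 UMIs). Ighg2b of EYFP negative run 1 was spread thinly over B-like cells, with at most 2 UMIs per cell, in 33.3% of cells and at 59.1 CPM, against 50.5 CPM in T or NK-like cells (25% of cells) and 43.1 CPM in endothelial-like cells (14.4% of cells), at median depths of 5832, 6394 and 3504 UMIs. In EYFP negative run 2, B-like cells had 20 Ighg2b UMIs, 8 of them in 1 cell, against 3 in T or NK-like and 0 in endothelial-like cells. How much of either gene in B-like cells came from other cells was not tested. B-like cells of pancreatitis and homeostasis also differed in their clusters: cluster 7 held 34 and 358 B-like cells of the EYFP positive and negative pancreatitis libraries and 18, 27, 78 and 100 of the homeostasis libraries, and cluster 8 held 2 and 72 against 9, 10, 21 and 230.

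The other genes of the pathway in B-like cells were followed with 5 lists. For EYFP, 0 of 20 B cell receptor and identity genes, 0 of 17 plasma cell programme genes, 0 of 10 class switch and survival factor genes, 0 of 7 immunoglobulin receptor genes and 0 of 7 B-1 and marginal zone genes were called (edgeR; DESeq2 called 0 in each list, and 1, 0, 1, 0 and 0 had an unadjusted p under 0.05, against 267 of all 5928). The lists' median log2 differences were -0.03, -0.00265, 0.01, 0.12 and 0.38, against -0.00735 over all genes. The lowest p was that of Btk, the kinase downstream of the B cell receptor (0.80 ± 0.22, edgeR adjusted p = 0.619), at 193, 236 and 133 CPM in EYFP positive runs 1 to 3 and 105, 101 and 88.7 CPM in EYFP negative runs 1 to 3. Tgfbr2, a receptor of the cytokine that directs switching to IgA, had a value of 0.56 ± 0.26 (edgeR adjusted p = 0.989).

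For pancreatitis, 1 gene of the same lists was called. This was Zbtb32, a transcription factor that restrains antibody recall responses in mice. It stood at 14.4 and 3.33 CPM in the EYFP positive and negative pancreatitis libraries and at 46.2, 36.8, 42.4 and 18.8 CPM in the homeostasis libraries. The EYFP positive values rest on few UMIs. In B-like cells, 3 UMIs equal 23.1, 22.1 and 10.8 CPM in EYFP positive runs 1 to 3. Zbtb32 fell by 2.61 ± 0.54 on the log2 scale (edgeR adjusted p = 0.0343). It missed the threshold with DESeq2 (adjusted p = 0.146), with stricter cells (edgeR adjusted p = 0.0826) and without any 1 library but EYFP positive run 2 (edgeR adjusted p 0.0621 to 0.95). It was 1 of 7 B-1 and marginal zone genes (median -0.94), of which Plac8 (-1.34, edgeR adjusted p = 0.086), Cd1d1 (-1.22, 0.206) and Cd9 (-0.94, 0.652) had the next lowest p. In the other lists 0 of 20, 0 of 17, 0 of 10 and 0 of 7 genes were called (medians -0.09, -0.16, 0.18 and 0.31; 3, 1, 2 and 2 with an unadjusted p under 0.05, against 413 of all 5928; DESeq2 called 0 in all 5 lists). Named by the lowest p, these were Fcer2a, the low-affinity IgE receptor (0.77 ± 0.23, edgeR adjusted p = 0.282), Syk (-0.79 ± 0.23, 0.248), Hspa5, an ER chaperone first found bound to heavy chains (0.52 ± 0.24, 0.707), Tnfrsf13c, the receptor for the survival factor BAFF (0.52 ± 0.22, 0.618), and Cd300lf (-2.85 ± 0.73, 0.119).

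Outside the B lineage, UMIs of the 8 genes were few and differed between libraries. In endothelial-like cells Ighm fell with EYFP, with 25, 1 and 0 UMIs in EYFP positive runs 1 to 3 and 58, 108 and 2 in EYFP negative runs 1 to 3, or 8.34, 9.58 and 0 CPM against 114, 58.4 and 5.70 CPM (-3.31 ± 0.43, edgeR adjusted p = 1.39e-04). Jchain fell too, with 5, 0 and 0 UMIs in EYFP positive and 19, 52 and 0 in EYFP negative runs 1 to 3 (-4.26 ± 0.78, edgeR adjusted p = 0.0222). These 2 were the members tested there, among 4 genes called of 6872 (0.0582%; 12 genes with run number as a block). DESeq2 gave an adjusted p of 0.901 for Jchain, and without EYFP positive run 1 Ighm missed the threshold (edgeR adjusted p = 0.771). In ductal-like cells Ighm, the single member tested, had 9, 0 and 0 UMIs in EYFP positive and 19, 54 and 1 in EYFP negative runs 1 to 3 (-3.84 ± 0.57, edgeR adjusted p = 0.00174, 6 of 6825 genes or 0.0879% called, 12 with run number as a block). Without EYFP negative run 1 or 2, no endothelial-like or ductal-like member passed the low-count filter. The members thus entered the test through libraries where they are high. Their shared direction was partly set by the filter and gives no separate support. Plasma-like cells held more Ighm in the EYFP negative library of runs 1 and 2, with 7109, 187 and 731 Ighm UMIs in EYFP positive runs 1 to 3 and 18014, 19327 and 0 in EYFP negative runs 1 to 3 (5613 more in the called doublet of EYFP negative run 3). Their part in the values of other classes was not tested.

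By condition, Ighm of endothelial-like cells had 0 and 2 UMIs in the EYFP positive and negative pancreatitis libraries and 25, 1, 58 and 108 in the homeostasis libraries (-3.87 ± 0.74, edgeR adjusted p = 0.0281, 5 of 6872 genes or 0.0728% called). The ratio of summed CPM was 0.117 (counting interval 0.0141 to 0.428), and DESeq2 gave an adjusted p of 0.558. Without EYFP positive run 3 the edgeR adjusted p was 0.0696 and without EYFP negative run 3 it was 0.996. Jchain of endothelial-like cells had 0 UMIs in both pancreatitis libraries and 76 in homeostasis, at least 2.26-fold lower with a floor of 3 counts over the group (edgeR adjusted p = 0.37). In ductal-like cells Ighm had 1 UMI in pancreatitis and 82 in homeostasis, a ratio of 0.0839 (counting interval 0.0021 to 0.481) that was not called (edgeR adjusted p = 0.741; unadjusted p = 0.0209, DESeq2 called 0, and 10 of 6825 genes or 0.147% were called, 0.0147% lower). The same members passed the low-count filter through homeostasis libraries, so the filter bears on the direction here too.

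T or NK-like cells stood apart from these classes in their Ighm. They had 55, 34 and 59 Ighm UMIs in EYFP positive runs 1 to 3 and 202, 196 and 477 in EYFP negative runs 1 to 3, or 180, 219 and 209 CPM against 464, 288 and 247 CPM. The EYFP difference of -0.75 ± 0.27 was not called (edgeR adjusted p = 0.72; unadjusted p = 0.0146; DESeq2 called 0; 2 of 5321 genes or 0.0376% called, 0.0188% lower; 12 with run number as a block). For pancreatitis the value was -0.38 ± 0.28 (edgeR adjusted p = 0.973, with 34 genes or 0.639% called; unadjusted p = 0.196, DESeq2 called 0). Thinned to 1000 UMIs, 9.76%, 16.7% and 15.2% of T or NK-like cells in EYFP positive runs 1 to 3 and 26.9%, 22.6% and 19.6% in EYFP negative runs 1 to 3 had an Ighm UMI. The same share of endothelial-like cells was 0.569%, 0% and 0% in EYFP positive and 11.8%, 7.26% and 0% in EYFP negative runs 1 to 3. Unthinned, the T or NK-like shares were 43.2%, 62.5% and 61.8% in EYFP positive and 79.4%, 51.5% and 63.3% in EYFP negative runs 1 to 3, at median depths of 2538 to 7567 UMIs. Thinning left out 3, 0 and 1 T or NK-like cells of EYFP positive and 1, 34 and 4 of EYFP negative runs 1 to 3, and 4, 1 and 1 against 5, 12 and 9 endothelial-like cells.

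The ratio of Ighm to Igkc, the kappa light chain constant gene, separated the classes further. Ighm made up 88.7%, 97.1% and 98.3% of the summed Ighm and Igkc UMIs of T or NK-like cells in EYFP positive runs 1 to 3 and 50.2%, 45.9% and 95.4% in EYFP negative runs 1 to 3. In B-like cells the shares were 34.9%, 25.7% and 31.7% in EYFP positive and 26.1%, 24.4% and 21.7% in EYFP negative runs 1 to 3. The exact 95% interval of T or NK-like cells lay above that of B-like cells in all 6 libraries. The lowest T or NK-like bound was 41.1% and the highest B-like bound 37.5%. Endothelial-like cells, by contrast, had 21.4% in EYFP positive run 1 and 17.2% and 15.1% in EYFP negative runs 1 and 2, near the 15.3% of plasma-like cells in EYFP positive run 1 and their 11.2% and 13.9% in EYFP negative runs 1 and 2. Ighd was nearly absent with it: T or NK-like cells had 14 Ighd and 1023 Ighm UMIs, while B-like cells had 4341 and 14352. The T or NK-like cells of EYFP negative runs 1 and 2 also held 200 and 231 Igkc UMIs. Macrophage or monocyte-like cells had shares of 77.8% (7 of 9 UMIs), 100% and 100% in EYFP positive and 33.3%, 45.0% and 88.6% in EYFP negative runs 1 to 3. The source of the Ighm UMIs in both classes was not tested.

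**Figure D5:**
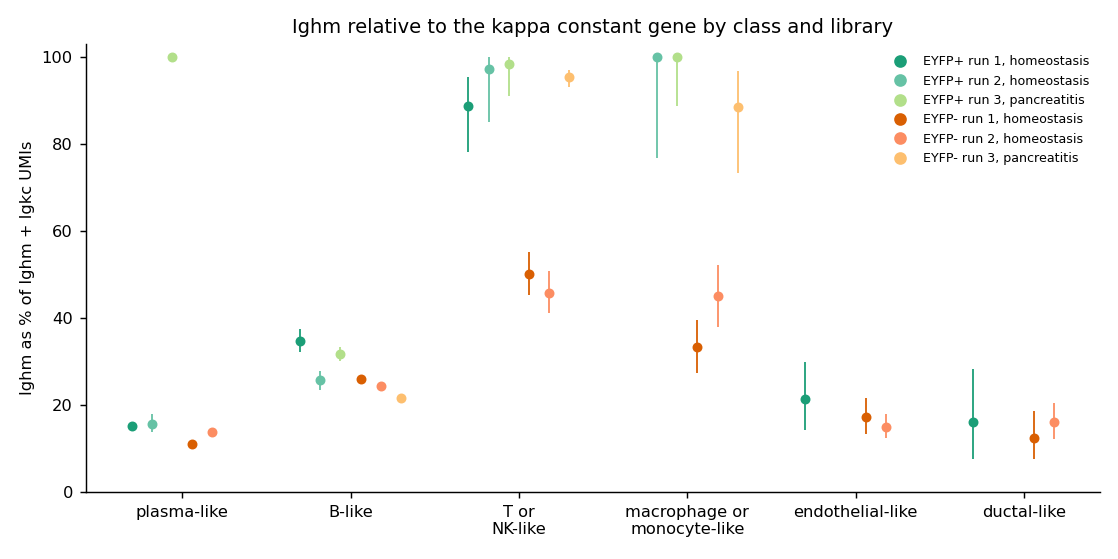
Ighm as a percentage of Ighm plus Igkc UMIs in each class and library with at least 10 such UMIs, with exact 95% binomial intervals that cover counting error. T or NK-like cells lie at 45.9% to 98.3%, above B-like cells (21.7% to 34.9%), while endothelial-like and ductal-like cells lie at 12.4% to 21.4%; the 100% of plasma-like cells in EYFP positive run 3 is 731 Ighm UMIs of 1 cell without Igkc.

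The switched isotypes outside the B lineage differed between the 2 EYFP negative homeostasis libraries. In endothelial-like cells EYFP negative run 1 had 22 Ighg2b, 18 Ighg1, 18 Ighg3 and 0 Igha UMIs, and EYFP negative run 2 had 0 Ighg2b, 9 Ighg1, 9 Ighg3 and 18 Igha UMIs. In Ighg2b and Igha the plasma-like cells of the same libraries differed in the same direction, with 15015 Ighg2b and 4 Igha UMIs in run 1 and 27 Ighg2b and 5799 Igha UMIs in run 2. Ighg2c went otherwise, with 13 UMIs in endothelial-like and 9 in plasma-like cells of EYFP negative run 2. Endothelial cells should lack these genes, and the source of these UMIs was not tested.

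Over the 42 sums of a class and library with at least 10 cells, the other genes most like each member differed by member (Pearson r of log2(CPM + 10); a description, since sums share libraries and classes). Ighd was nearest to Fcmr, the IgM Fc receptor of B cells (0.99), Gm31243 (0.97) and Cd22 (0.96). Ighm was nearest to Fam214a (0.87), Tnfrsf13b, a receptor for the survival factors BAFF and APRIL (0.86), and Cd37 (0.86). Jchain was nearest to Prg2 (0.86), Clec2g (0.86) and Tg (0.83), Ighg3 to Prg2 (0.91), Cenpf (0.89) and Clec2g (0.89), and Igha to Clec2g (0.93), Oosp1 (0.92) and Prg2 (0.89). Ighg1 was nearest to Prg2 (0.81), Ccnb1 (0.79) and Cenpf (0.79), Ighg2b to Gm20605 (0.71), Gpatch3 (0.57) and Rbm14 (0.56), and Ighg2c to Ccnb2 (0.70), Gzmk (0.66) and Tg (0.65). Plasma-like cells entered with the 24 barcodes of EYFP negative run 2 alone, so for the switched genes and Jchain these values rest largely on 1 sum.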

How the data were processed

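The deposited values are UMI counts for each gene and barcode, whole numbers that the authors did not normalise, per the file headers. Cell Ranger 2.1.0 and GRCh38 stand in the submitters' processing notes, whereas the headers carry software version 3.1.0 and mouse gene identifiers; the sources used here do not give the mouse build. A barcode was kept if it had 200 or more genes and no more than 20% of UMIs from mitochondrial genes, and 50 doublets called by Scrublet in scanpy 1.11.5 (20 components) were removed. Counts were scaled to 10000 and log transformed; 2000 variable genes without immunoglobulin genes, 30 components, 15 neighbours and Leiden resolution 1 gave clusters, named by marker lists, and the cluster with most plasma cell markers was clustered again (10 components) after seeing the data. Class sums of libraries with 10 or more cells in the class went into edgeR 4.0.16 under R 4.3.3 (TMM, filterByExpr, quasi-likelihood test, condition and EYFP as terms, Benjamini-Hochberg over all genes, threshold 0.05). On simulated data of the EYFP comparison of B-like cells (5687 genes tested), it recovered 18.4% of genes changed 2-fold among those past the filter. For 4-fold and 8-fold changes it recovered 78.8% and 92.7%. The simulation gave all genes 1 fixed spread and had no run effect. It therefore does not cover members whose UMIs lie mostly in single cells, such as Jchain and Ighg1. DESeq2 1.42.0 and the settings of the closing section were alternatives. Run numbers pair the libraries: deviations from the EYFP group means of same-run libraries correlated in every class tested (r = 0.145 to 0.363); so the block of run numbers is given where it changes a call. Genes named are the 8 members, up to 4 genes of lowest p per list (B cell receptor and identity, plasma cell programme, class switch and survival factors, immunoglobulin receptors, B-1 and marginal zone) and up to 3 genes most like each member. The members and lists were chosen with earlier results of these data known.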

Additional observations from a re-analysis of the deposited data

Results flagged for a closer look

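Outside the cells kept for the comparisons, 3 called doublets and 2 barcodes under the minimum of 200 genes held at least 50 heavy chain UMIs. In the EYFP negative pancreatitis library, a barcode removed as a called doublet had 5253 Igha, 1835 Jchain and 18706 Igkc UMIs among 32330, with UMIs of 15 plasma cell markers. A second called doublet of that library had 5613 Ighm, 4291 Jchain and 16897 lambda light chain UMIs but 2 Igkc UMIs among 43337. Their heavy chain UMIs were 99.6% Igha and 100% Ighm, and with doublets kept the plasma-like class counted 2 Igha cells in place of 1. The third called doublet, of EYFP negative run 2, was far shallower, with 75 Ighm, 5 Jchain and 196 Igkc UMIs among 1994. Under the minimum of 200 genes, a barcode of EYFP negative run 1 had 65 Ighg1 and 314 Igkc UMIs in 92 genes, and a barcode of EYFP positive run 2 had 62 Igha and 341 Igkc UMIs in 154 genes. The last of these shares its barcode with the Igha cell of EYFP negative run 2, which had 5824 heavy chain UMIs.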

How the results depend on the processing

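Among the log2 differences of members under other settings, 215 kept their direction and side of the threshold, 10 lost a call, 6 gained one and 12 changed sign, the last all Ighm or Ighd values near 0 in B-like cells. Members called in B-like cells numbered 0 for EYFP, against 3 with no low-count filter and 1 with run number as a replicate block (Jchain, the one member call the block changed), and 0 to 1 with 1 library left out. For pancreatitis they numbered 2, against 4 with no filter, 1 with DESeq2 (Ighg2b had no adjusted p), 1 with immunoglobulin genes kept in clustering (Jchain, edgeR adjusted p = 0.0545) and 0 to 3 with 1 library left out. The count was 1 without EYFP negative run 1, where 3 members passed the filter. Neither call held without either run 3 library, which leaves 1 pancreatitis library. In the other classes 3 were called for EYFP, against 8 with no filter and 0 to 3 with 1 library left out. They numbered 1 without EYFP positive run 1. Without EYFP negative run 1 or 2 they numbered 0, but there 1 member passed the filter, against 4 in the main fit. For pancreatitis 1 was called, against 3 with no filter, 0 with DESeq2 and 0 to 1 with 1 library left out.

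Sign changes for EYFP were 0.0032 for Ighd with immunoglobulin genes kept and -0.0615 for Ighm with no filter; with 1 library left out Ighd ranged over -0.0451 to 0.0104 (0.000935 without EYFP negative run 3), and Ighm over -0.10 to 0.15. For pancreatitis Ighm was 0.0350 with no filter and -0.14 to 0.11 with 1 library left out. The difference in plasma-like share for pancreatitis was 0.431 points with plasma-like cells chosen by cell, -16.3 at clustering resolution 2, and -13.5 to -6.26 with 1 library left out (-6.26 without EYFP positive run 1); for EYFP it was 29.9 points by cell, 18.2 with the plasma-like cluster not split, 5.71 with stricter cells, 1.62 without shallower copies and 6.61 (without EYFP positive run 1) to 15.3 with 1 library left out, none past the threshold. Of cells with an isotype, 63.6% to 72.3% used Ighm under the alternatives run. Over all genes, calls in B-like cells numbered 5 for EYFP, against 0 to 33, and 29 for pancreatitis, against 0 to 136. Depth limits the switched genes and Jchain in B-like cells, which rest on few UMIs a library.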

Other observations

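Ighg2c, the IgG2 gene of C57BL/6 mice, was dominant in no plasma-like cell, yet EYFP negative run 2 held its UMIs in several classes. There were 13 in endothelial-like, 10 in ductal-like, 10 in B-like, 7 in T or NK-like and 9 in plasma-like cells. Over the endothelial, ductal, acinar, stromal, endocrine and erythroid-like cells of that library Ighg2c made up 7.12% of 393 heavy chain UMIs (exact 95% interval 4.79% to 10.1%), and 0 of 207 in EYFP negative run 1. With the threshold lowered to 3 heavy chain UMIs, 1 plasma-like cell was assigned to Ighg2c. The plasma-like cells with the most markers (cluster 5.3, 25 barcodes) were led by Slpi, Prg2 and Mzb1, with the proliferation gene Mki67 among the 10 leading genes.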
